A study of Homo sapiens with 32 samples.

Results

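VPS36 is a subunit of ESCRT-II, and its RNA was examined here together with that of SNF8, VPS25, TSG101, VPS28, HGS, CHMP6 and CHMP4B, 8 of the 35238 genes in the deposited table. The genes were chosen by measured values: VPS36 had the lowest SM08502-minus-vehicle difference of all tested genes in HEC265 cells, at -2.33 on the log2 scale. The others are its ESCRT-II partners or work beside it. The next-lowest gene stood at -2.26. All 8 passed the filter on low values (CPM above 1 in at least 2 samples), and a wider list of 35 ESCRT genes, all of which also passed, gave the context. CPM is reads per 1000000 counted.

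The libraries were bulk RNA sequencing of 4 human endometrial cancer cell lines, treated for 24 h in 16 groups of 2. CTNNB1, which encodes beta-catenin, is labelled as wild type in Ishikawa and as mutated in Ishikawa-S33Y, SNGM and HEC265. Vehicle was 0.1% DMSO. Paclitaxel was given at 11 nM to Ishikawa, 6 nM to Ishikawa-S33Y, 11.7 nM to SNGM and 5.6 nM to HEC265. SM08502 was given at 80, 85, 350.7 and 149 nM to the same lines in that order, and the combination groups received both drugs. SM08502 is an inhibitor of CDC-like kinases, enzymes that phosphorylate SR splicing proteins, whereas paclitaxel binds and stabilises microtubules. Each dose was the one that lowered viability to 50% in that line, and 350 ng of RNA was used for Ishikawa libraries and 500 ng for the others. In the drug comparisons line and dose therefore cannot be told apart, nor can line and RNA input where Ishikawa is set against another line.

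The sequencing depth of 30 libraries lay between 13.03 and 34.13 M (1 M is 1000000 reads). Replicate 2 of the combination was shallower in SNGM, at 1.61 M, and in Ishikawa-S33Y, at 2.99 M. Epithelial markers (EPCAM, KRT8, KRT18, CDH1) were at 113 CPM or more in every library, and PAX8, a marker of endometrial epithelium, lay between 64.4 and 514 CPM. SOX17, another such marker, was listed at 0 in 7 libraries and had a median of 0 CPM in SNGM. The leukocyte, endothelial and fibroblast markers PTPRC, PECAM1, VWF, DCN and LUM stayed at or under 8.35 CPM. Cells were plated in duplicate, so the p-values rest on the spread between 2 dishes of a group, pooled for each gene over the 16 groups. That spread was uneven. Over 6083 genes, the root mean square log2 difference of duplicates ran from 0.0699 in HEC265 with vehicle to 0.594 in Ishikawa with paclitaxel. In bulk RNA fewer expressing cells and less RNA per cell cannot be told apart.

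ESCRT complexes sort ubiquitinated membrane proteins into the inner vesicles of late endosomes and cut membrane necks in other places, including the bridge between dividing cells. ESCRT-0 (HGS with STAM) gathers the cargo, ESCRT-I (TSG101, VPS28 and others) takes it over, and ESCRT-II (VPS36, SNF8 and VPS25) links ESCRT-I to CHMP6. CHMP6 in turn starts the ESCRT-III filament, in which CHMP4B is a main subunit, and the VPS4 ATPase takes the filament apart. VPS36 is the ESCRT-II subunit that binds ubiquitin and membrane lipid, through its GLUE domain.

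VPS36 lies on chromosome 13 at 52412606 to 52450634 of GRCh38.p14, on the minus strand. SNF8 lies on chromosome 17 at 48929316 to 48944842, also on the minus strand, and VPS25 on chromosome 17 at 42773449 to 42779599, on the plus strand. None of the 3 overlaps another RefSeq gene. In the fit to all 32 libraries, VPS36 was the 1 of these 3 genes called as changed under SM08502. The 250 bases before the first listed start of each ESCRT-II gene are shown, because the 3 genes encode 1 complex. They come from RefSeq and run 5′ to 3′ on the gene's strand, from chr13:52450635-52450884 for VPS36, chr17:48944843-48945092 for SNF8 and chr17:42773199-42773448 for VPS25. Capitals mark a match to 1 of 4 motifs searched on both strands: the TATA box, spelled TATAAA, the CCAAT box, the GC box, spelled GGGCGG, and the E-box, spelled CACGTG.
VPS36: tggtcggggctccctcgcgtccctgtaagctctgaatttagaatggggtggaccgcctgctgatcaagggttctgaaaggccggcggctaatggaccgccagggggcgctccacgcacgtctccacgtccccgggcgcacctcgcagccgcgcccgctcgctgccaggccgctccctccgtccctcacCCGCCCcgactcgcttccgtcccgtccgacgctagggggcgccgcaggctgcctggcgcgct
SNF8: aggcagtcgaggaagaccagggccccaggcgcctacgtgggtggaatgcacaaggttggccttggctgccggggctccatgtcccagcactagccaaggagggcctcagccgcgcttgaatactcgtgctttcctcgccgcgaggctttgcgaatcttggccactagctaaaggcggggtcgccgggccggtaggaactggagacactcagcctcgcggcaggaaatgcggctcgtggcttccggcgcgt
VPS25: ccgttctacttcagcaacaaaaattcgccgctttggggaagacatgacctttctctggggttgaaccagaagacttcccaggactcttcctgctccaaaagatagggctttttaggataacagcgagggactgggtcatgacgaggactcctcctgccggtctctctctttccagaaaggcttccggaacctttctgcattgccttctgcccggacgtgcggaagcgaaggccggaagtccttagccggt
The VPS36 window held 1 GC box, on the strand opposite to the gene, which 42.6% of the 35116 promoter windows of this length also hold, and no other motif of the 4. None of the 4 was found in the SNF8 and VPS25 windows. GC content was 71.6% in the VPS36 window, 65.2% in that of SNF8 and 54% in that of VPS25, against a median of 58% over all windows. The VPS36 window had 31 CpG pairs, SNF8 22 and VPS25 13, with a median of 11 over all windows. A second VPS36 start is listed inside the gene and is not shown. Its window held 1 E-box, which 6.34% of the windows hold, and no other motif of the 4, with a GC content of 77.6%.

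VPS36 RNA was high in all 16 libraries without SM08502 and low in all 16 with it. In Ishikawa, VPS36 stood at 52.6 and 51.6 CPM with vehicle, 48.2 and 46.0 with paclitaxel, 21.1 and 24.0 with SM08502, and 20.3 and 20.0 with the combination. In Ishikawa-S33Y, the values in the same order were 49.6 and 48.0, 44.2 and 50.3, 17.6 and 16.6, and 18.7 and 13.4 CPM. In both lines the groups with SM08502 lay apart from those without it. In SNGM, VPS36 stood at 60.5 CPM in both vehicle libraries, 66.9 and 55.0 with paclitaxel, 18.7 and 18.2 with SM08502, and 27.8 and 24.3 with the combination. In HEC265, it stood at 62.1 and 63.6 CPM with vehicle, 64.9 and 65.0 with paclitaxel, 11.3 and 12.04 with SM08502, and 12.5 and 13.3 with the combination. HEC265 thus held both the highest and the lowest group means of the 16, the lowest in a group that was used to choose VPS36. The 2 shallow libraries gave VPS36 40 reads in Ishikawa-S33Y and 39 in SNGM, for exact 95% binomial intervals of 9.55 to 18.2 and 17.3 to 33.2 CPM, which cover counting error only.

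**Figure D1:**
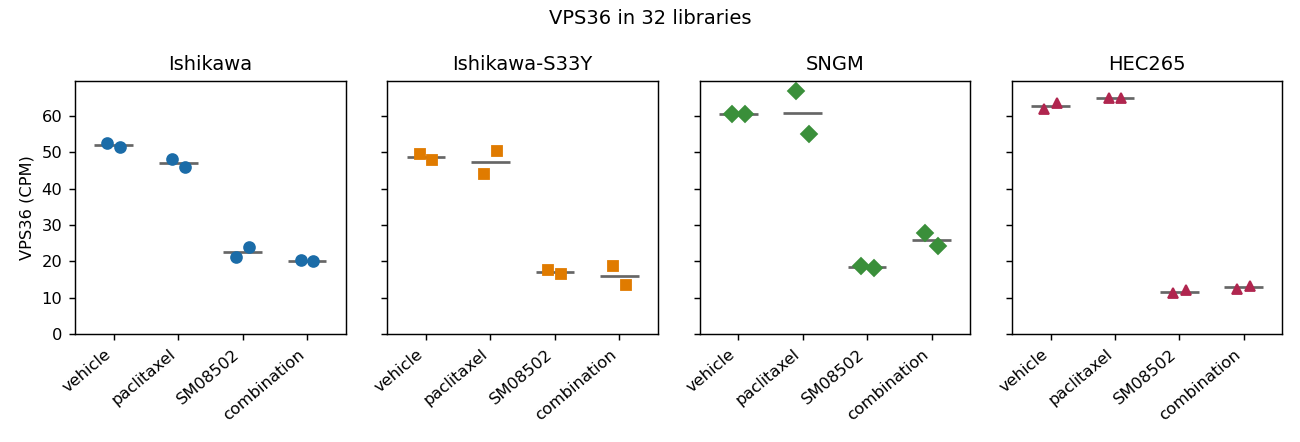
VPS36 level in CPM (vertical axis, from 0) in each of the 32 libraries, by treatment and cell line; points are libraries and bars the means of 2. The groups with SM08502 lie between 11.3 and 27.8 CPM and the groups without it between 44.2 and 66.9 CPM.

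The order of the 16 group means ran from 65.0 ± 0.0802 CPM (SD, n = 2) in HEC265 with paclitaxel to 11.7 ± 0.525 CPM in HEC265 with SM08502. At the top, HEC265 with vehicle, SNGM with paclitaxel and SNGM with vehicle followed, and sample values of neighbours in this stretch overlapped. Ishikawa with vehicle came next, and then Ishikawa-S33Y with vehicle, Ishikawa-S33Y with paclitaxel and Ishikawa with paclitaxel, again with overlapping neighbours. Below them lay the 8 groups with SM08502, led by SNGM with the combination at 26.0 ± 2.48 CPM. The lower end was Ishikawa-S33Y with SM08502 and with the combination, whose samples overlapped, then HEC265 with the combination and HEC265 with SM08502. The last of these groups was used to choose VPS36.

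SM08502 alone was compared with vehicle in the 3 lines that played no role in the choice of VPS36. As a difference of log2(CPM + 1), VPS36 fell by 1.66 in SNGM (SE 0.12, limma adjusted p = 4.38e-08), by 1.46 in Ishikawa-S33Y (adjusted p = 6.93e-08) and by 1.17 in Ishikawa (adjusted p = 4.06e-06). On the mean of these 3 lines VPS36 fell by 1.43 (SE 0.07, adjusted p = 5.56e-11), in 6 of 6 treated libraries relative to both vehicle libraries of their line. Among 17011 tested genes, VPS36 ranked 4 from the lowest in SNGM, 74 in Ishikawa-S33Y and 112 in Ishikawa. In HEC265, where the difference chose the gene, the mean went from 62.9 to 11.7 CPM, and no test is given.

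The combination was compared with paclitaxel alone, a contrast whose libraries were not used to choose VPS36. VPS36 fell in all 4 lines. The difference was -2.25 in HEC265 (95% interval -2.50 to -1.99, limma adjusted p = 4.05e-10), -1.52 in Ishikawa-S33Y (adjusted p = 1.77e-08), -1.19 in SNGM (adjusted p = 2.94e-06) and -1.19 in Ishikawa (interval -1.44 to -0.93, adjusted p = 4.24e-06). As a ratio of mean CPM, VPS36 with the combination stood at 0.427 of its level with paclitaxel in Ishikawa and SNGM, 0.339 in Ishikawa-S33Y and 0.199 in HEC265. Counted from the lowest of 17011 genes, it ranked 4 in HEC265, 113 in Ishikawa, 139 in SNGM and 183 in Ishikawa-S33Y. The mean over the 4 lines was -1.54 (SE 0.06, adjusted p = 7.66e-13).

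The size of this fall differed between HEC265 and each other line. The combination-minus-paclitaxel difference of VPS36 was lower in HEC265 by 1.06 than in Ishikawa (limma adjusted p = 0.00183), by 0.73 than in Ishikawa-S33Y (adjusted p = 0.00767) and by 1.05 than in SNGM (adjusted p = 0.00114). Such lower differences were called for 1.36%, 5.94% and 1.90% of all tested genes, in the same order. VPS36 was the 1 member of the 8 called in each of these 3 tests. Among the other 3 lines no difference in the fall was called: -0.33 between Ishikawa-S33Y and Ishikawa (adjusted p = 0.248), -0.01 between SNGM and Ishikawa (adjusted p = 0.99) and 0.32 between SNGM and Ishikawa-S33Y (adjusted p = 0.194). With Ishikawa-S33Y combination replicate 1 left out, which leaves its shallow partner, the first became -0.56 (adjusted p = 0.0262) and the last 0.55 (adjusted p = 0.018). Under quantile normalization the difference between HEC265 and Ishikawa-S33Y was -0.43 and no longer called (adjusted p = 0.124), and without Ishikawa-S33Y paclitaxel replicate 1 it was -0.64 (adjusted p = 0.0519).

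Paclitaxel alone left VPS36 within 0.14 of vehicle on the log2 scale in the 4 lines. The differences were 0.00 in SNGM, -0.05 in Ishikawa-S33Y, -0.14 (95% interval -0.40 to 0.11) in Ishikawa and, with no test since the vehicle libraries entered the choice, 0.05 in HEC265. No member was called for paclitaxel against vehicle in any line, and neither was any gene of the wider list, where 0.00588% of all genes were called in HEC265, 0.0176% in SNGM, 0% in Ishikawa-S33Y and 0.0118% in Ishikawa. At an unadjusted p under 0.05 the list had 0, 1, 0 and 3 genes in that order. With both drugs against SM08502 alone, VPS36 differed by 0.47 in SNGM (interval 0.22 to 0.73, limma adjusted p = 0.0908), -0.11 in Ishikawa-S33Y, -0.15 in Ishikawa and 0.14 in HEC265, where no test is given. No member was called here either, against 0.253%, 0.129%, 0% and 0.00588% of all genes in that order. At an unadjusted p under 0.05, VPS36 in SNGM was the 1 member in the 4 lines.

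SNF8 and VPS25, the other ESCRT-II subunits, were not called under SM08502 in any comparison of the fit to all 32 libraries. Under some alternative settings, listed under processing, they were. For the combination against vehicle these were SNF8 (0.28) and VPS25 (0.22) in HEC265, and VPS25 (-0.26) in Ishikawa-S33Y. Against paclitaxel it was VPS25 (0.25) in Ishikawa. The values given are those of the fit to all libraries. In HEC265, SNF8 stood at 21.6 and 22.4 CPM with vehicle, 24.9 and 21.2 with paclitaxel, 24.2 and 24.3 with SM08502, and 27.6 and 26.2 with the combination. VPS25 in the same libraries stood at 38.7 and 40.5, 41.6 and 40.4, 42.9 and 46.5, and 49.2 and 43.6 CPM. In this line, then, both partners with the combination lay above their levels with paclitaxel, while VPS36 lay below. For the combination against paclitaxel, SNF8 differed by 0.22 in HEC265, -0.07 in SNGM, -0.12 in Ishikawa-S33Y and -0.04 in Ishikawa, and the mean over lines was -0.00 (95% interval -0.14 to 0.13). VPS25 differed by 0.17, -0.07, -0.13 and 0.25 in the same lines, with a mean of 0.05 (interval -0.07 to 0.18). For SM08502 against vehicle, the mean over Ishikawa, Ishikawa-S33Y and SNGM was -0.04 for SNF8 (interval -0.20 to 0.12) and -0.04 for VPS25 (interval -0.18 to 0.10). Those intervals exclude a fall of the size seen for VPS36. Copies of SNF8 and VPS25 exist as the pseudogenes SNF8P1 and VPS25P1, so their counts depend on how shared reads were assigned.

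The level of VPS36 relative to its partners was followed as log2(CPM + 1) of VPS36 minus the mean of SNF8 and VPS25 in each library. This quantity depends on gene length, so its value in 1 library carries no information alone. Its vehicle mean differed between lines, from -0.02 in Ishikawa to 1.06 in HEC265, which was not tested. Its shifts within a line are given here. It ran from -0.13 to 0.03 without SM08502 and from -1.40 to -1.19 with it in Ishikawa, and from 0.23 to 0.44 and from -1.34 to -0.77 in Ishikawa-S33Y. In SNGM the ranges were 0.92 to 1.08 and -0.69 to -0.09, and in HEC265 they were 0.99 to 1.12 and -1.49 to -1.28. The ranges with and without the drug did not overlap in any line. Those of HEC265 include the libraries that chose VPS36, so their separation there was partly set by the choice. How many other genes would separate from these partners was not counted.

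**Figure D2:**
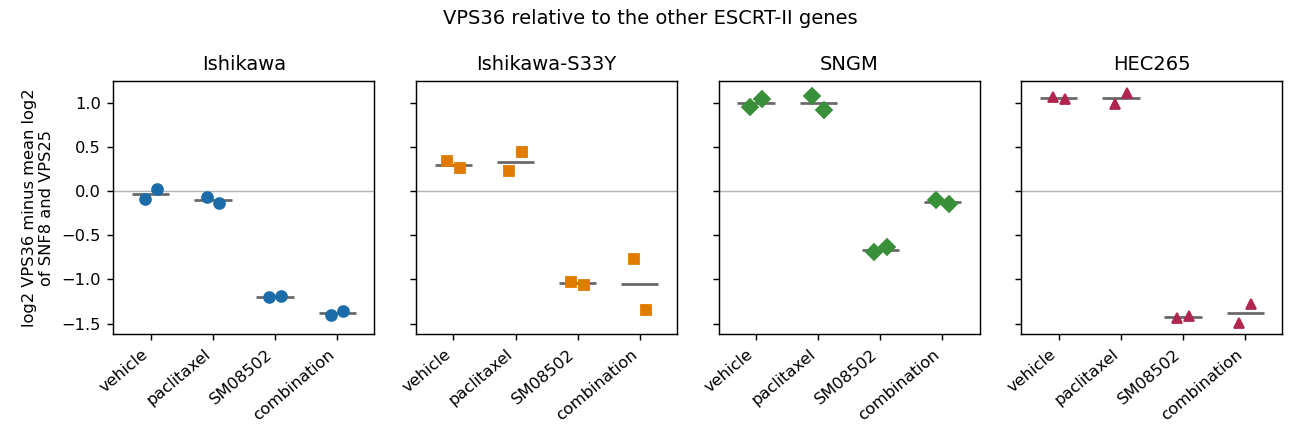
Log2(CPM + 1) of VPS36 minus the mean of SNF8 and VPS25 (vertical axis, log2) in each library, by line and treatment; points are libraries and bars the means of 2. In HEC265, whose vehicle and SM08502 libraries chose VPS36, the values are 0.99 to 1.12 without SM08502 and -1.49 to -1.28 with it.

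Of the upstream subunits, TSG101, the ESCRT-I protein that receives cargo from ESCRT-0, rose in Ishikawa with the combination. TSG101 stood at 59.1 and 86.5 CPM with paclitaxel and 105.7 and 104.6 with the combination there, a difference of 0.55 (SE 0.14, limma adjusted p = 0.0118). Over the 6083 genes with a mean log2(CPM + 1) of at least 5, the paclitaxel replicates of Ishikawa had a root mean square log2 difference of 0.594, against 0.104 in the combination group. Without Ishikawa paclitaxel replicate 1 the TSG101 difference was 0.28 (adjusted p = 0.22). It was not called either without Ishikawa combination replicate 1 (adjusted p = 0.0768) or 2 (adjusted p = 0.0741), or in a fit to Ishikawa alone (adjusted p = 0.245). In Ishikawa-S33Y, SNGM and HEC265 it was -0.00, 0.14 and 0.06. The mean over lines was 0.19 (adjusted p = 0.0355), a call lost in 4 of 9 alternative settings and on leaving out any of 11 of the 16 libraries (adjusted p up to 0.109). VPS28, another core subunit of ESCRT-I, stood at 18.5 and 19.1 CPM with vehicle and 24.3 and 23.8 with SM08502 in Ishikawa-S33Y, where it rose by 0.34 (adjusted p = 0.0203). On re-centring each sample at its median this was 0.29 and no longer called (adjusted p = 0.13), nor was it under quantile normalization (adjusted p = 0.0926) or without any 1 of its 4 libraries (adjusted p of 0.0722 to 0.11). HGS, the cargo-binding subunit of ESCRT-0, fell in Ishikawa-S33Y from 41.5 and 40.6 CPM with paclitaxel to 30.9 and 22.4 with the combination, a difference of -0.62 (adjusted p = 0.0119). The lower of these libraries is the shallow one, and without it the difference was -0.40 (adjusted p = 0.183). Without Ishikawa-S33Y paclitaxel replicate 1 the HGS difference was -0.61 (adjusted p = 0.0638).

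Of the downstream subunits, CHMP6, which ESCRT-II recruits, rose in Ishikawa-S33Y with SM08502. There CHMP6 stood at 10.5 and 9.06 CPM with vehicle and 16.0 and 17.2 with the drug, a difference of 0.71 (SE 0.17, limma adjusted p = 0.00297). For the combination against paclitaxel, CHMP6 differed by 0.36 in HEC265, 0.25 in SNGM, 0.41 in Ishikawa-S33Y and 0.29 in Ishikawa, none called alone. Their mean, 0.33 (interval 0.15 to 0.50), was called (adjusted p = 0.00311). CHMP6 had the lowest counts of the members, down to 13 reads in the shallowest library. CHMP4B was not called in any treatment comparison of a line or in the means over lines in the fit to all libraries. Under some alternative settings it was, as for the combination against paclitaxel in HEC265 (estimates 0.14 to 0.24) and in SNGM (-0.59 to 0.28). Its 4 HEC265 libraries with SM08502 (95.26 to 103.4 CPM) lay above the 4 without it (79.94 to 89.47 CPM), as for 30.4% of tested genes. CHMP4B stood at 89.5 and 84.9 CPM with paclitaxel and 103 and 96.4 with the combination in HEC265, a difference of 0.19 (interval -0.24 to 0.62).

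Counted over the 8 members for the combination against paclitaxel, 1 was called lower in HEC265 (6.53% of all genes were), 1 in SNGM (6.60%), 2 in Ishikawa-S33Y (17.4%) and 1 in Ishikawa (6.14%). VPS36 was the member called lower in every line. TSG101 in Ishikawa was the 1 member called higher, where 8.30% of all genes were. For SM08502 against vehicle, VPS36 was the 1 member called lower in Ishikawa, Ishikawa-S33Y and SNGM, where 8.68%, 10.6% and 4.06% of all genes were. VPS28 and CHMP6 were called higher in Ishikawa-S33Y (18.5% of all genes), and no member in Ishikawa (6.50%) or SNGM (3.80%). On the means over lines, 3 members were called higher and 2 lower for the combination against paclitaxel (25.7% and 19.1% of all genes), and 3 higher and 1 lower for SM08502 against vehicle without HEC265 (18.7% and 14.6%). The calls of VPS36 on both means, and of CHMP6 on the first, held under all alternatives run. Those of TSG101, VPS28 and HGS on the first were lost under some, with adjusted p up to 0.109, 0.117 and 0.201. On the second, TSG101, VPS28 and CHMP6 were lost under some, with adjusted p up to 0.0976, 0.0744 and 0.0992.

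**Figure D3:**
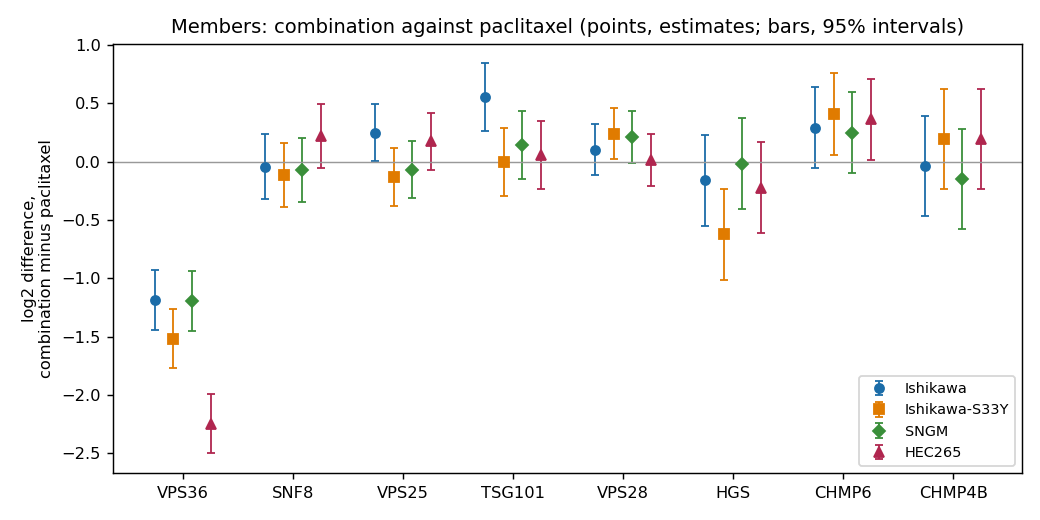
Difference in log2(CPM + 1) between combination and paclitaxel (axis) for the 8 members in each line; points are estimates from 2 libraries a group and bars 95% intervals. VPS36 lies between -2.25 and -1.19, and the other members between -0.62 and 0.55.

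The wider list of 35 genes held few others that moved with VPS36. For the combination against paclitaxel, HEC265 had 5 of them higher and 3 lower, SNGM 5 and 4, Ishikawa-S33Y 15 and 5, and Ishikawa 9 and 3. Over all genes, 8.39%, 9.28%, 22.1% and 8.30% were called higher and 6.53%, 6.60%, 17.4% and 6.14% lower. The median difference of the list was 0.19, 0.20, 0.31 and 0.10 in this order of lines, against 0.06, -0.00, 0.06 and 0.01 over all tested genes. VPS36 had the lowest difference of the list in every line, and the next-lowest genes were STAMBP in Ishikawa (-0.56) and Ishikawa-S33Y (-0.96), MVB12A in SNGM (-0.68) and USP8 in HEC265 (-0.47). STAMBP and USP8 are the deubiquitinases that act on ESCRT cargo, and MVB12A is a subunit of ESCRT-I.

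MVB12A was the other gene of the list called lower in all 4 lines, which was so for 120 of the tested genes (0.705%). In a fit to Ishikawa alone it was not called. Its mean went from 40.5 ± 4.39 to 28.3 ± 2.92 CPM (SD, n = 2) in Ishikawa, from 30.5 ± 1.13 to 15.4 ± 0.393 in Ishikawa-S33Y, from 25.4 ± 1.26 to 15.4 ± 0.169 in SNGM and from 19.1 ± 1.58 to 13.6 ± 0.584 in HEC265. The differences were -0.50, -0.94, -0.68 and -0.46, so MVB12A fell less than VPS36 did in each line, a gap that was not tested. MVB12A overlaps BISPR and HMGB3P29, and the strand of counting is not given in the sources used here. STAMBP fell in 3 lines and stood at -0.12 in HEC265 (limma adjusted p = 0.409).

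CHMP2A and CHMP4C, subunits of ESCRT-III, were called higher in all 4 lines, as were 232 of the tested genes (1.36%). In a fit to Ishikawa alone neither was called, and in a fit to SNGM alone they were not both called. In SNGM the CHMP4C libraries with SM08502 (30.82 to 40.45 CPM) overlapped those without it (25.35 to 33.44 CPM). CHMP2A differed by 0.61 in HEC265, 0.38 in SNGM, 0.29 in Ishikawa-S33Y and 0.42 in Ishikawa, and CHMP4C by 0.43, 0.33, 0.77 and 0.36. In HEC265, CHMP2A went from 25.1 ± 0.0876 to 38.9 ± 1.74 CPM (SD, n = 2), the largest rise of the list there (limma adjusted p = 0.000244). STAM, UBAP1, CHMP1A and VPS4B were called higher in 3 lines each. In HEC265, STAM, the partner of HGS, stood at 0.14 (adjusted p = 0.361) and VPS4B, an ATPase of the VPS4 complex, at 0.23 (adjusted p = 0.0837). In SNGM, UBAP1 of ESCRT-I stood at 0.15 (adjusted p = 0.28) and CHMP1A of ESCRT-III at 0.23 (adjusted p = 0.131). The largest rises in the other lines were those of VTA1, the cofactor of VPS4, in Ishikawa (0.59), UBAP1 in Ishikawa-S33Y (0.83) and CHMP5 in SNGM (0.53).

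**Figure D4:**
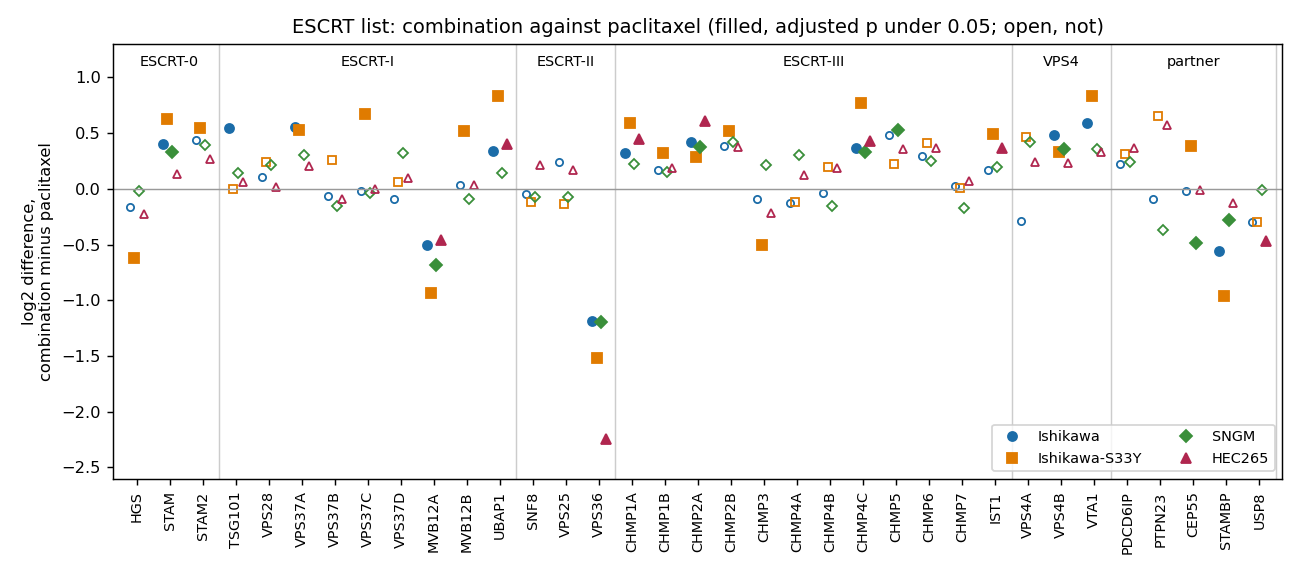
Combination-minus-paclitaxel difference in log2(CPM + 1) for the 35 genes of the wider ESCRT list, by complex and line. VPS36 is the lowest of the list in each line, and the highest values run from 0.53 (CHMP5 in SNGM) to 0.83 (UBAP1 in Ishikawa-S33Y).

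Within each line, VPS36 in all 4 libraries with SM08502, alone or combined, lay below all 4 without it, which was so for 18.4% of tested genes in HEC265, 10.1% in SNGM, 22.4% in Ishikawa-S33Y and 8.51% in Ishikawa. The HEC265 count includes the libraries that chose the gene. Of the wider list, MVB12A and STAMBP also lay wholly below in each of the 4 lines. In HEC265, STAMBP stood at 48.91 to 50.6 CPM with the drug and 51.58 to 55.96 without it. SNF8 lay wholly below in 1 line, Ishikawa-S33Y, with 40.7 to 44.8 CPM with the drug and 45.7 to 48.1 without it. VPS25 lay wholly above in HEC265, as 30.4% of tested genes did, with 42.9 to 49.2 CPM with the drug and 38.7 to 41.6 without it.

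On vehicle, VPS36 differed little between the lines. SNGM exceeded Ishikawa-S33Y by 0.31 (95% interval 0.05 to 0.56, limma adjusted p = 0.0364), and Ishikawa-S33Y and SNGM stood at -0.09 (adjusted p = 0.575) and 0.21 (adjusted p = 0.131) relative to Ishikawa. HEC265 was 0.27, 0.36 and 0.05 above Ishikawa, Ishikawa-S33Y and SNGM, with no test. The SNGM call did not hold when any vehicle library of either line was left out (adjusted p of 0.0833 to 0.135), and re-centring at the sample median moved the difference from Ishikawa to 0.35 (adjusted p = 0.0165).

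The largest difference between lines was greater in estimate for each partner than for VPS36, but this did not hold in every pair. For Ishikawa-S33Y minus Ishikawa, SNF8 stood at 0.02 and VPS36 at -0.09. For HEC265 minus Ishikawa-S33Y, VPS25 stood at 0.28 and VPS36 at 0.36. On vehicle, SNF8 stood at 21.6 and 22.4 CPM in HEC265, 20.0 and 21.0 in SNGM, 47.1 and 48.1 in Ishikawa-S33Y and 49.0 and 44.8 in Ishikawa. SNGM and HEC265 thus lay below the Ishikawa lines, by 1.15 (limma adjusted p = 1.13e-07) and 1.06 (adjusted p = 4.61e-07) relative to Ishikawa. VPS25 was lower in Ishikawa-S33Y than in Ishikawa by 0.86 (adjusted p = 4.15e-06), and TSG101 by 0.93 (adjusted p = 1.38e-05). In the latter pair 3 members were called lower and 1 higher, where 28.2% and 20.0% of all genes were. For SNGM against Ishikawa the members called lower were 4 (38.8% of all genes) and higher 0 (28.0%). For HEC265 against Ishikawa, with VPS36 left untested, they were 3 (38.3%) and 2 (24.9%).

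The genes beside VPS36 on chromosome 13 were THSD1 at 6.4 kb and TPTE2P2 at 89.3 kb on one side, and CKAP2 at 4.8 kb and HNRNPA1L2 at 166.9 kb on the other. CKAP2, which encodes a protein of the mitotic spindle, stood at 231.5 and 228.1 CPM with paclitaxel and 210.8 and 192.5 with the combination in HEC265, a difference of -0.19 (95% interval -0.47 to 0.09). In Ishikawa-S33Y it rose by 0.63 (limma adjusted p = 0.000862), and no other line gave a call. THSD1 differed by 0.33 in HEC265, 0.04 in SNGM, 0.35 in Ishikawa-S33Y and 0.37 in Ishikawa. TPTE2P2 differed by 0.20, -0.29, -0.44 and 0.42, and HNRNPA1L2 by -0.03, -0.28, 0.23 and 0.17, in that order. None of these was called, and all 3 had group means of at most 6.16 CPM.

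Likeness to VPS36 was described by Pearson's r of log2(CPM + 1) over the 32 libraries, after subtracting the mean of each line, among 12117 genes with a mean of at least 2. These libraries share depth and normalization, 16 of them hold SM08502, so a gene that moves with the drug scores high, and the HEC265 libraries that chose VPS36 are among them. The highest values were 0.971 for MTHFD1L, a mitochondrial folate enzyme, 0.970 for ERCC2, a helicase of the TFIIH complex, 0.963 for TBCD, a tubulin-folding cofactor, 0.959 for TRAPPC9, a subunit of a vesicle-tethering complex, and 0.959 for RBM3, an RNA-binding protein. This order depended on the measure. Over the 12 differences of each treatment from vehicle, MTHFD1L and ERCC2 ranked 3 and 2, but TBCD 46, TRAPPC9 33 and RBM3 15. Without the shallow libraries the ranks were 2, 4, 8, 13 and 6. For the combination against paclitaxel in HEC265 the 5 genes fell by 1.31, 1.57, 1.50, 1.42 and 1.39, against 2.25 for VPS36. The lowest r was -0.964 for FBXO36, followed by -0.961 for VRK3 and -0.961 for ZNF271P, which rose by 1.33, 0.76 and 0.96 in that comparison. Of the ESCRT-II partners, SNF8 had an r of -0.106 and VPS25 of -0.181. MVB12A had 0.845, rank 262 of 12117, and CHMP2A had -0.908.

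**Figure D5:**
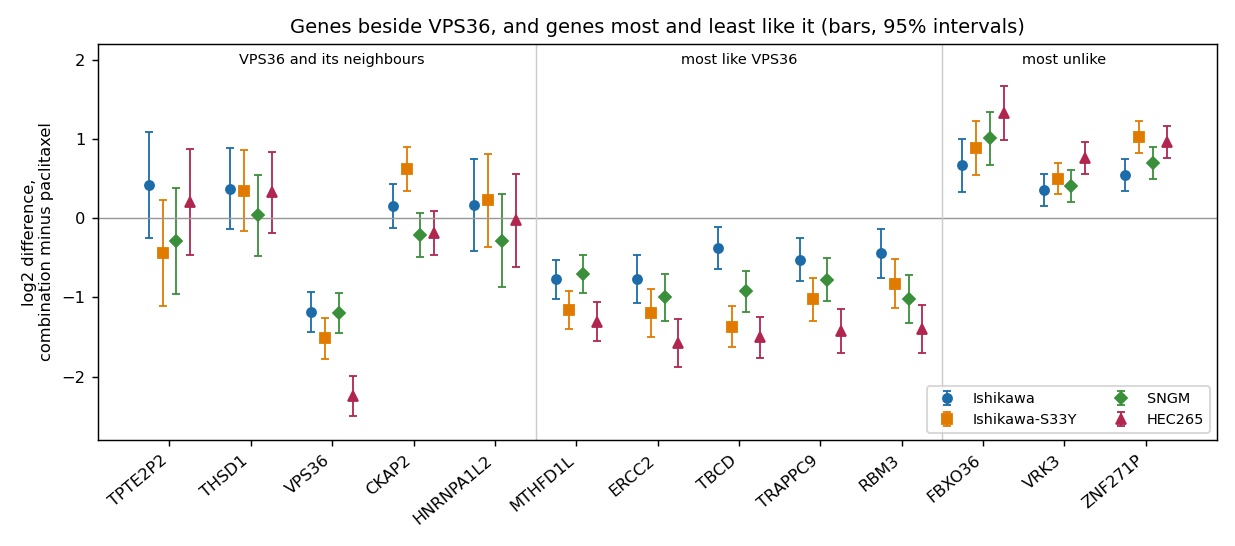
Combination-minus-paclitaxel difference in log2(CPM + 1) (vertical axis) for VPS36, its 4 neighbours on chromosome 13, the 5 genes most like it and the 3 most unlike it, by line; bars are 95% intervals. VPS36 is at -2.25 in HEC265, where CKAP2 is at -0.19 and ERCC2 at -1.57.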

How the data were processed

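Per the labels' protocols, RNA was purified on RNeasy columns, depleted of ribosomal RNA with FastSelect, made into libraries with the KAPA mRNA HyperPrep kit and sequenced on a NovaSeq6000. The submitters' processing notes name bcl2fastq, STAR, kallisto and GRCh38, and which of them made the table, and the strand of counting, are not given in the sources used here. The authors deposited log10(CPM + 1) for 35238 genes. Taken back to CPM, every library sums to 1000000, and 100% of values were whole reads within 0.1 read, which gave the depth. The splicing tables mentioned in the labels were not analysed here.

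Values were tested as log2(CPM + 1), a scale that understates changes of low genes. The filter, a CPM above 1 in 2 or more samples, left 17011 genes. All 32 samples entered 1 fit in limma 3.58.1 (R 4.3.3), with a mean for each of 16 groups, empirical Bayes moderation, an intensity trend and 16 residual degrees of freedom. In each of 34 contrasts the two-sided p-values of the 17011 genes were Benjamini-Hochberg adjusted together, and calls needed an adjusted value under 0.05. The procedure was also run on simulated counts with the same relative spread for every gene and group. It therefore does not test calls where the spread of duplicates differs between groups, as it did here.

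The members, the wider list and the rules were chosen with earlier results of these data known. Named were all members, list genes called 1 way in at least 3 lines for the combination against paclitaxel, the largest rise and fall there per line, the 5 genes most like VPS36, the 3 least like it and its 2 nearest tested genes on each side. The design had foreseen CPM as deposited unit. Alternatives were no filter, a mean of at least 2, a pseudocount of 0.1, median re-centring, quantile normalization, no trend, the compared lines alone, a replicate block, limma voom on the recovered reads, no shallow libraries, and leaving out each replicate.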

Additional observations from a re-analysis of the deposited data

Results flagged for a closer look

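The fall of VPS36 with the combination against paclitaxel differed between HEC265 and each other line by a test of the difference itself in limma. The difference of the log2 differences was -1.06 between HEC265 and Ishikawa (SE 0.17, adjusted p = 0.00183), -0.73 between HEC265 and Ishikawa-S33Y (adjusted p = 0.00767) and -1.05 between HEC265 and SNGM (adjusted p = 0.00114). Under quantile normalization the difference between HEC265 and Ishikawa-S33Y was -0.43 and not called (limma adjusted p = 0.124). Drug doses differed between the lines, so line and dose cannot be told apart. HEC265 was the line in which VPS36 was chosen, although the libraries of this contrast were not those used.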

How the results depend on the processing

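The fall of VPS36 for the combination against paclitaxel in each of the 4 lines, and for SM08502 against vehicle in Ishikawa, Ishikawa-S33Y and SNGM, kept its direction and its call under all alternatives run. The number of list genes called for SM08502 against vehicle was 17 in Ishikawa-S33Y, 6 in Ishikawa and 6 in SNGM, and for the combination against paclitaxel 20, 12 and 9, with 8 in HEC265. Over all tested genes, 18.5%, 6.50% and 3.80% were called higher for SM08502 and 10.6%, 8.68% and 4.06% lower. For the combination, 22.1%, 8.30%, 9.28% and 8.39% were called higher and 17.4%, 6.14%, 6.60% and 6.53% lower. Shares under the alternatives are not given, so the counts that follow show only how calls depend on the setting. For SM08502 the number of list genes called was 3 in SNGM after median re-centring and 3 after quantile normalization. In fits to the compared line alone it was 1 in Ishikawa and 1 in SNGM, and for the combination against paclitaxel 1 in Ishikawa, 2 in SNGM and 22 in HEC265. Without the 2 shallow libraries it was 10 for SM08502 in Ishikawa and 5 for the combination in SNGM. Leaving out 1 library changed the list genes called for SM08502 against vehicle to 10 to 13 (Ishikawa-S33Y), 3 to 9 (Ishikawa) and 1 to 4 (SNGM), and those for the combination against paclitaxel to 12 to 18, 5 to 16 and 2 to 15, with 3 to 6 in HEC265. The 15 came without SNGM combination replicate 1, which leaves the shallow library alone, and the lone sample of such a fit is assumed to vary like the other groups.

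VPS36 on vehicle was 0.35 higher in SNGM than in Ishikawa after median re-centring (adjusted p = 0.0165 in limma) and 0.21 higher without the shallow libraries (adjusted p = 0.0481). Relative to HEC265 it moved to 0.48 (Ishikawa) and 0.54 (Ishikawa-S33Y) after re-centring, and to 0.19 (Ishikawa-S33Y) and -0.082 (SNGM) after quantile normalization, as HEC265 minus the other line. SNGM minus Ishikawa-S33Y was 0.27 after quantile normalization (adjusted p = 0.0751), 0.31 in the compared lines alone (adjusted p = 0.0873) and 0.28 to 0.33 with 1 library left out. Quantile normalization gave VPS36 -2.15 for SM08502 and -2.06 for the combination against vehicle in HEC265. It gave -0.43 for the difference in its fall between HEC265 and Ishikawa-S33Y (adjusted p = 0.124), and it turned CHMP6 on vehicle in HEC265 minus Ishikawa-S33Y to 0.42 (adjusted p = 0.0187). With 1 library left out, differences in the fall of VPS36 ran from -0.56 to -0.10 (Ishikawa-S33Y minus Ishikawa), 0.10 to 0.55 (SNGM minus Ishikawa-S33Y) and -0.96 to -0.50 (HEC265 minus Ishikawa-S33Y). The cause was not tested. Same-numbered libraries did not deviate together throughout (r of -0.65 to 0.86 over 24 pairs of groups), so the numbers do not pair them. With a replicate block, VPS36 stayed at -2.25 for the combination against paclitaxel in HEC265 (adjusted p = 2.16e-08) and the list genes called there stayed 8 in number. Depth limits low genes such as CHMP6, with 13 reads in its shallowest library.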
